A study of Mus musculus with 11 samples.

Results

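The 10 genes described here encode intermediate filament proteins and surface or RNA-binding proteins that are widely used to mark neural and glioma stem cells. They were taken by gene symbol from a table of read counts that holds 27687 mouse genes, and all 10 were found and passed the filter on low counts. The filaments are Nes, Vim and Synm, the surface glycoproteins are Prom1 and Cd44, Fut4 makes a surface carbohydrate, Msi1 and Msi2 bind RNA, and L1cam and Nrcam are adhesion molecules. RNA was counted in 9 high-grade gliomas with prolonged knockdown of Ezh2 and in 2 control gliomas without it. All 11 tumours grew from the same kind of cells, injected into the brain of NOD-SCID hosts, which lack T and B cells but keep macrophages and neutrophils. These glioma-initiating cells had been made from subventricular-zone neural stem cells isolated at 7 days of age from mice of the compound conditional strain p53;Ink4a/Arf;Krasv12;LucR and recombined in culture by lentiviral CMV-Cre. Every tumour, controls included, therefore carried those alleles as well as the doxycycline-responsive hairpin FH1-tUTG-shEzh2. The design gives doxycycline in the drinking water to some mice and not to others, whereas the sample labels print 1 protocol for all (2 mg/ml with 1% sucrose), so effects of the drug and of the hairpin cannot be told apart.

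Intermediate filaments of this group build the cytoskeleton of neural progenitors. Nestin does not form filaments by itself and assembles together with vimentin, while synemin links such filaments to other structures. Prominin-1, the CD133 antigen, sits on membrane protrusions, and CD44 is the main receptor for hyaluronan and is also abundant on leukocytes. Fucosyltransferase 4 adds fucose to make the Lewis X sugar, known as CD15 or SSEA-1, that is used to sort neural stem cells. Musashi proteins repress or activate translation of bound mRNAs, and L1CAM and NrCAM belong to the L1 family of immunoglobulin-type adhesion molecules, known best from axons. Counts per gene report neither protein nor the sugar epitope, and they do not separate the splice forms of Cd44.

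Of the 10 genes, 4 were lower in the knockdown tumours, namely Nes, Vim, Cd44 and Nrcam, 1 was higher, namely Fut4, and 5 did not pass the test (quasi-likelihood F-test of edgeR on the counts, with a p under 0.05 after Benjamini-Hochberg adjustment over 16241 tested genes). Among all tested genes 23.3% passed, 10.3% as higher and 13.0% as lower. Xist, a marker of female cells described below, reached at least 10 CPM in 5 knockdown and 2 control libraries. In a fit of only these, 4 of the 10 genes were lower and 1 higher. The shares above come from all 11 libraries and do not apply to that smaller fit. The same 5 genes were the ones whose knockdown and control libraries did not overlap, which held for 27.2% of all tested genes. The median log2 fold change of the 10 genes was 0.05, against 0.07 over all tested genes. With 10 genes and 2 controls these counts describe the group and single out nothing about it.

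The promoter sequences of the 5 genes that passed are given as a description of their start sites. PRC2, the complex of which Ezh2 is the methyltransferase, is known to bind mainly at promoters rich in CpG dinucleotides. The windows are the 250 bases before the start annotated by RefSeq on GRCm38.p6, and 9 of the 10 genes had 1 or more windows, Msi1 being without. Nes lies at chr3:87970843-87971092 on the plus strand, Vim at chr2:13574061-13574310 on the plus strand and Cd44 at chr2:102901666-102901915 on the minus strand. Nrcam lies at chr12:44328635-44328884 on the plus strand and Fut4 at chr9:14752123-14752372 on the minus strand. Capitals mark matches, on either strand, to the letters TGANTCA (AP-1), GGGCGG (the GC box), TATAAA (the TATA box) and CCAAT.
Nes: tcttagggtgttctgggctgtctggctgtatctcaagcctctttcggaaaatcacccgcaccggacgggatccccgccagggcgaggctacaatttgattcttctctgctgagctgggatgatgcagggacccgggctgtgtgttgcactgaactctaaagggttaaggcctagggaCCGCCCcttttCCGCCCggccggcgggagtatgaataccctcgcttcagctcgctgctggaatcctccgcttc
Vim: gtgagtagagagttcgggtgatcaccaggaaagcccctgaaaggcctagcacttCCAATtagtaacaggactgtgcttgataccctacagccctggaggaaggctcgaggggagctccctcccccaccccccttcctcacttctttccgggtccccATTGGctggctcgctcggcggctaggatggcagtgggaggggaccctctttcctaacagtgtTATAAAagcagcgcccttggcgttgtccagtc
Cd44: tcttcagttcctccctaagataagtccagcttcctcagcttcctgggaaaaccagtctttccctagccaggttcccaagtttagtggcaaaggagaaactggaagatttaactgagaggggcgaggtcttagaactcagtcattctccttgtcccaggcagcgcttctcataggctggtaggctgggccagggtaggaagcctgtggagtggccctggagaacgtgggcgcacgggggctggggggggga
Nrcam: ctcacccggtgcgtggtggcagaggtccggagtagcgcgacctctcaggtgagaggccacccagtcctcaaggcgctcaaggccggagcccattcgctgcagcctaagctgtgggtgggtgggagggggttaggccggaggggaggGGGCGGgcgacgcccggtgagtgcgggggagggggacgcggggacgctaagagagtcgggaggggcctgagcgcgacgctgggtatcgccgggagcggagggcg
Fut4: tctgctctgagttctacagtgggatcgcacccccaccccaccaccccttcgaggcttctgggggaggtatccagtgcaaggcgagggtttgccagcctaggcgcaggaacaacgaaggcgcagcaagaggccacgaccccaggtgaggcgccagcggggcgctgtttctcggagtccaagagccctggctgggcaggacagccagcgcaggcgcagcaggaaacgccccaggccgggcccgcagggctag
CpG counts differed among the 4 genes that fell: Nrcam held 25 and Nes 15, whereas Vim held 8 and Cd44 only 5, against a median of 6 over 32851 windows. Fut4, the gene that rose, held 16. Among the genes that did not pass, Msi2 held 29 to 30 in its windows, Synm 23, L1cam 20 and 12, and Prom1 3 and 9. Bases after the start were not counted, so a low count in these windows does not show that a promoter is poor in CpG. A link between CpG count and change was not tested. Nes carried 2 GC boxes and Nrcam 1, a motif found in 32.7% of all windows. Vim carried a TATA box that begins 32 bases before the start (12.4% of all windows) and 2 CCAAT motifs (33.8%), and none of the 4 motifs was matched in Cd44 or Fut4. AP-1 letters, present in 6.75% of all windows, were matched only in the windows of Prom1, in both of its 2. The letters thus show no motif shared by all 4 genes that fell, and a match is a description of the sequence, not a binding site.

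Ezh2 itself checked the labels. It lay between 7.27 and 30.4 CPM in the knockdown tumours, and at 45.3 and 52.7 CPM in the controls. It fell by 1.59 ± 0.44 on the log2 scale (SE; edgeR, adjusted p = 0.0225), a call lost with either control alone. CPM are reads of a gene relative to the library total, scaled between libraries by the TMM method. Libraries held between 11209233 and 18638382 counts. The share of mitochondrially encoded reads lay between 3.43% and 13.5%, and both controls (4.28% and 5.45%) were within the range of the knockdown tumours. Xist, expressed from the inactive X chromosome of female cells, exceeded 10 CPM in 5 knockdown tumours and both controls and was at most 1.10 CPM in the other knockdown tumours.

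**Figure D1:**
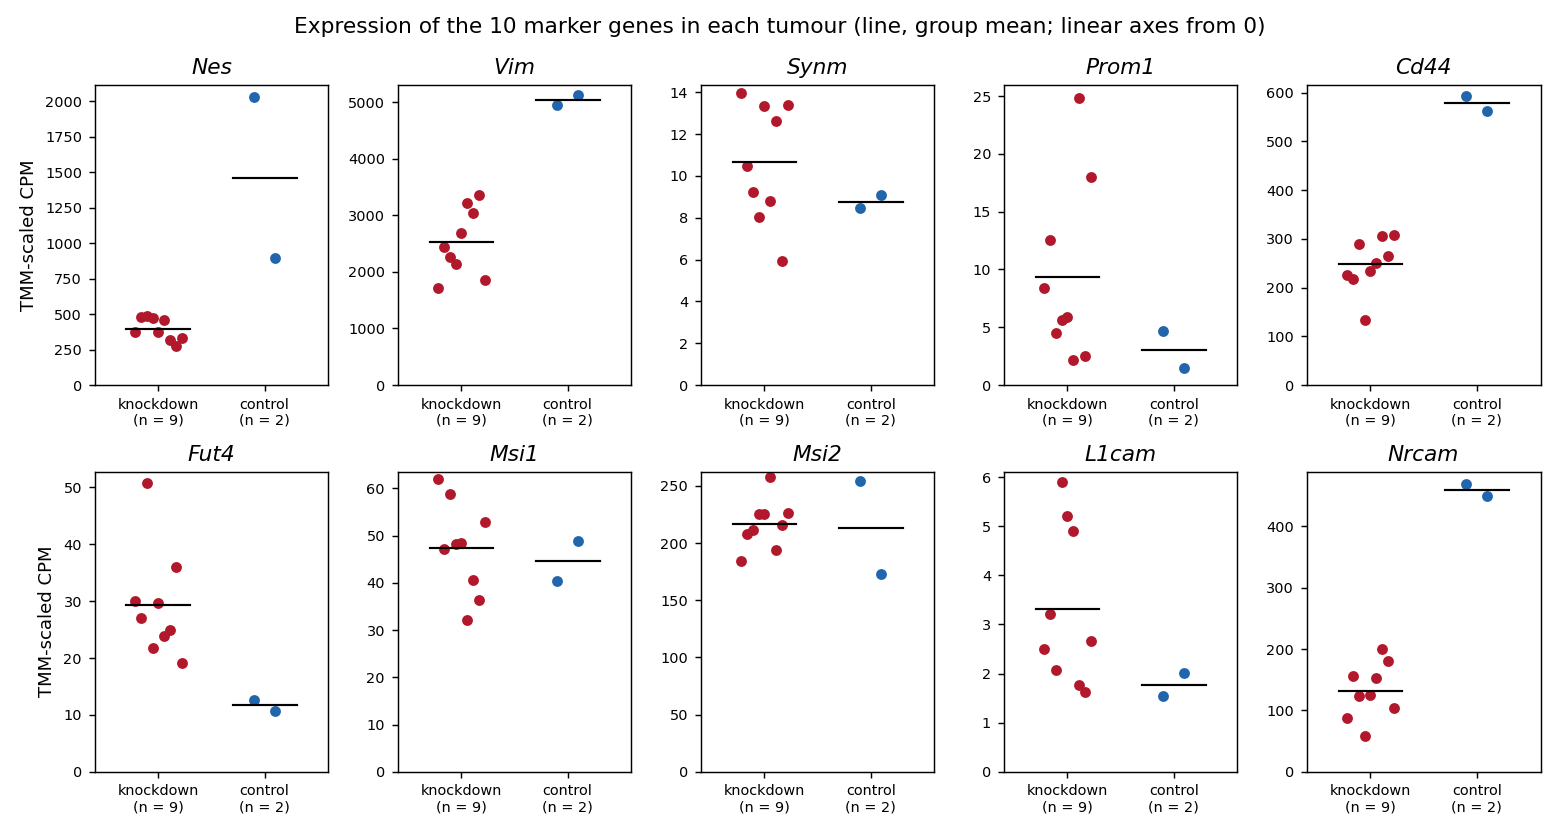
Expression of the 10 marker genes as TMM-scaled CPM, one panel per gene, with the 9 knockdown tumours at left (red) and the 2 controls at right (blue) and black lines at group means. In all 9 knockdown tumours Nes, Vim, Cd44 and Nrcam lie below both controls and Fut4 lies above them, and the groups overlap for the other genes.

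The filament genes went different ways. Nes, which encodes nestin (ENSMUSG00000004891, mm9 chr3:87775000-87784373), had 374, 477, 484, 472, 374, 458, 321, 278 and 331 CPM in knockdown tumours 1 to 9, against 2027 and 893 CPM in controls 1 and 2. All knockdown tumours were thus lower than both controls, and the controls stood further apart from each other than any pair of knockdown tumours. The mean was 397 ± 78.1 CPM in the knockdown tumours (SD, n = 9) and 1460 ± 802 CPM in the controls (SD, n = 2). Nes fell by 1.88 ± 0.25 on the log2 scale (SE; edgeR, adjusted p = 0.000565), and its knockdown mean was 27.2% of the control mean. How far it fell rests on which control is used. Set against control 2 alone, the log2 fold change was -1.17 (edgeR, adjusted p = 0.0223), and against control 1 alone it was -2.36 (edgeR, adjusted p = 0.000335). Over all 21 alternatives its adjusted p ran from 2.84e-09 (DESeq2) to 0.10. The highest came from a fit by replicate number, whose contrast rests on tumours 1 and 2 of each group.

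Vim, the gene of vimentin and the main partner of nestin in filaments (ENSMUSG00000026728, mm9 chr2:13495554-13504453), had 1712, 2440, 2264, 2137, 2690, 3217, 3043, 3368 and 1862 CPM in knockdown tumours 1 to 9, against 4950 and 5136 CPM in controls 1 and 2. Each knockdown tumour was below both controls, which differed little from each other. The mean was 2526 ± 593 CPM in the knockdown tumours (SD, n = 9) and 5043 ± 131 CPM in the controls (SD, n = 2), and Vim fell 2.00-fold (log2 fold change -1.0 ± 0.25 SE; edgeR, adjusted p = 0.0142). With a single control in the fit the size stayed near this value while the call was lost, at -1.03 against control 2 alone (edgeR, adjusted p = 0.0932) and -0.97 against control 1 alone (edgeR, adjusted p = 0.0894). Its adjusted p over all alternatives ran from 0.000711 to 0.0932.

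Synm, which encodes synemin (ENSMUSG00000030554, mm9 chr7:74875047-74904628), showed no such fall. Its level was between 5.93 and 13.9 CPM in the knockdown tumours, with a median of 10.4, against 8.46 and 9.08 CPM in the controls, which lie inside that range. The log2 fold change was 0.28 ± 0.30 (SE; edgeR, adjusted p = 0.528).

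Cd44 was lower as well. The hyaluronan receptor gene (ENSMUSG00000005087, mm9 chr2:102651298-102741822) had 226, 217, 288, 133, 235, 250, 306, 264 and 308 CPM in knockdown tumours 1 to 9, against 593 and 563 CPM in controls 1 and 2. Knockdown tumour 4 was the lowest, and the highest ones stayed well below either control. The mean was 248 ± 54.6 CPM in the knockdown tumours (SD, n = 9) and 578 ± 21.2 CPM in the controls (SD, n = 2). Cd44 fell 2.33-fold (log2 fold change -1.22 ± 0.22 SE; edgeR, adjusted p = 0.00308) and passed in all 21 alternatives, with adjusted p up to 0.0399.

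Nrcam, of the L1 family (ENSMUSG00000020598, mm9 chr12:45429872-45702951), had 87.7, 157, 124, 58.8, 125, 153, 200, 181 and 105 CPM in knockdown tumours 1 to 9, against 469 and 450 CPM in controls 1 and 2. The groups were far apart, and the lowest value was again that of knockdown tumour 4. The mean was 132 ± 45.1 CPM in the knockdown tumours (SD, n = 9) and 459 ± 13.2 CPM in the controls (SD, n = 2). Nrcam fell 3.47-fold (log2 fold change -1.79 ± 0.31 SE; edgeR, adjusted p = 0.00236), and the call held in all 21 alternatives, with adjusted p up to 0.0488.

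Its relative L1cam, the founding member of the family (ENSMUSG00000031391, mm9 chrX:71099117-71141444), was scarce in every tumour. Levels were 2.51, 3.21, 2.07, 5.89, 5.21, 4.91, 1.77, 1.62 and 2.65 CPM in knockdown tumours 1 to 9, against 1.54 and 2.00 CPM in controls 1 and 2. Knockdown tumours 4, 5 and 6 stood above the rest, and tumours 7 and 8 lay within the control range. L1cam had a log2 fold change of 0.90 ± 0.53 (SE; edgeR, adjusted p = 0.24), on 20 to 86 reads a library. The table's gene model of L1cam also overlaps that of Arhgap4, and how reads in the shared stretch were assigned is not known. Arhgap4 itself went the other way, at 5.91 CPM on average in the knockdown tumours and 14.7 CPM in the controls.

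Fut4, the fucosyltransferase gene (ENSMUSG00000049307, mm9 chr9:14552903-14556566), was the gene that rose. It had 30.1, 27.1, 50.8, 21.7, 29.7, 23.8, 25.0, 35.9 and 19.2 CPM in knockdown tumours 1 to 9, against 12.5 and 10.8 CPM in controls 1 and 2. No knockdown tumour came down to the control level, and tumour 3 was the highest. The mean was 29.3 ± 9.48 CPM in the knockdown tumours (SD, n = 9) and 11.7 ± 1.25 CPM in the controls (SD, n = 2), a 2.51-fold rise (log2 fold change 1.33 ± 0.33 SE; edgeR, adjusted p = 0.0145). The call needs both controls: against control 2 alone the value was 1.44 on the log2 scale (edgeR, adjusted p = 0.0944), and against control 1 alone 1.22 (edgeR, adjusted p = 0.118), and neither passed. Over all alternatives its adjusted p ran from 0.000625 to 0.118.

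Prom1 was the most uneven of the 10 genes. The CD133 gene (ENSMUSG00000029086, mm9 chr5:44384864-44493271) had 8.38, 12.6, 4.48, 5.62, 5.92, 2.18, 24.8, 2.48 and 18.0 CPM in knockdown tumours 1 to 9, against 4.69 and 1.44 CPM in controls 1 and 2. Tumours 7 and 9 were the highest, tumours 3, 6 and 8 were below control 1, and the groups overlapped. The highest knockdown tumour exceeded the lowest 11.4-fold. The coefficient of variation was 81.9% in the knockdown tumours, above that of 94.1% of all tested genes. The log2 fold change of 1.62 ± 0.92 (SE; edgeR, adjusted p = 0.224) did not pass. Prom1 is also expressed by ependymal cells, and the summed level of the 5 ependymal markers Foxj1, Tmem212, Ccdc153, Rsph1 and Dynlrb2 was likewise highest in tumours 9 and 7, at 14.7 and 11.7 CPM. It lay between 2.82 and 7.92 CPM in the other knockdown tumours and at 5.77 and 5.39 CPM in the controls. Ccdc153 and Dynlrb2 had no reads in the controls or in tumour 7. The single markers did not all follow the sum. In tumour 7 Tmem212 had 5.92 CPM and Rsph1 5.01 CPM, whereas Foxj1 had 0.79 CPM, below both controls (1.38 and 1.69 CPM). In tumour 9 Foxj1 had its highest value, 4.31 CPM. High values in tumours 7 and 9 were not particular to ependymal markers. Among the knockdown tumours, those 2 were also highest for Slc1a3, an astrocyte marker (42.3 and 90.5 CPM), and Cnp, an oligodendrocyte marker (104 and 89.6 CPM). The summed markers of astrocytes and of oligodendrocytes, in contrast, were highest in tumours 2 and 3. The part of ependymal cells in the Prom1 level was not tested.

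Neither Musashi gene passed. Msi1 (ENSMUSG00000054256, mm9 chr5:115879608-115905707) lay between 32.2 and 62.1 CPM in the knockdown tumours, with a median of 48.3, against 40.5 and 48.8 CPM in the controls. Msi2 (ENSMUSG00000069769, mm9 chr11:88152884-88579827) lay between 185 and 258 CPM in the knockdown tumours, with a median of 216, against 254 and 173 CPM in the controls. For both genes the controls fell among or next to the knockdown tumours. The log2 fold change was 0.09 ± 0.22 for Msi1 (SE; edgeR, adjusted p = 0.801), and 0.02 ± 0.15 for Msi2 (edgeR, adjusted p = 0.935). The sign of neither is settled: that of Msi2 turned to -0.02 under RLE scaling and -0.23 without control 2, and that of Msi1 turned to -0.04 without control 1. The coefficient of variation of Msi2 among knockdown tumours, 9.85%, was the lowest of the 10 genes, and that of 9.69% of all tested genes was lower still.

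**Figure D2:**
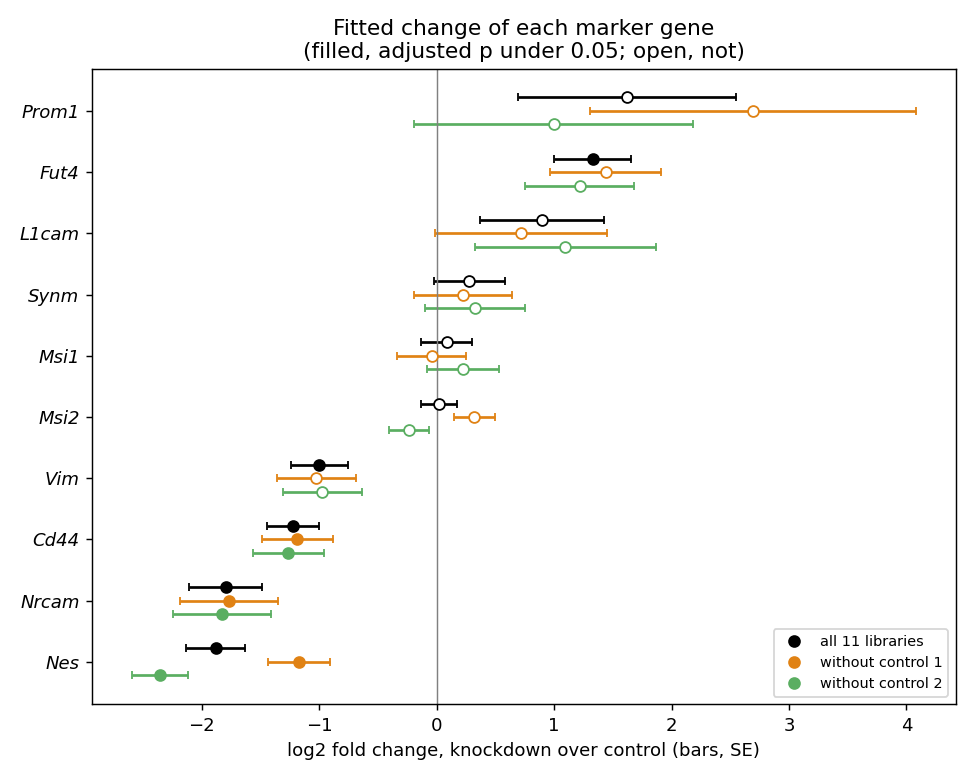
Fitted log2 fold change of each marker gene, knockdown over control, with SE bars, from all 11 libraries (black), without control 1 (orange) and without control 2 (green). Filled points passed at an adjusted p under 0.05. Cd44 and Nrcam kept size and call, Nes moved between -1.17 and -2.36, and Vim and Fut4 kept their size but lost the call with a single control.

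Levels of different genes were compared per kilobase of exon, with lengths from GENCODE M21 on GRCm38. Vim was the most abundant, at 533 ± 125 CPM per kb in the knockdown tumours (SD, n = 9) and 1063 ± 27.7 CPM per kb in the controls (SD, n = 2). Nes followed at 61.8 ± 12.2 CPM per kb in the knockdown tumours, above 96.0% of tested genes, and at 228 ± 125 CPM per kb in the controls, above 99.2%. Cd44 came next at 36.5 ± 8.06 CPM per kb in the knockdown tumours and 85.2 ± 3.13 CPM per kb in the controls. 

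The order among knockdown tumours went on with Msi2 (20.8), Nrcam (9.91), Msi1 (8.17), Fut4 (7.18), Synm (1.34), Prom1 (1.31) and L1cam (0.45 CPM per kb). Ranges over the 9 tumours did not overlap between Vim and Nes, between Msi2 and Nrcam, or between Fut4 and Synm, and they overlapped for all the other neighbours in this order. In the controls the order was the same except that Nrcam, at 34.4 CPM per kb, stood above Msi2, at 20.5 CPM per kb. Synm, Prom1 and L1cam exceeded only 23.7%, 23.4% and 11% of tested genes in the knockdown tumours, at the other end from Vim and Nes.

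**Figure D3:**
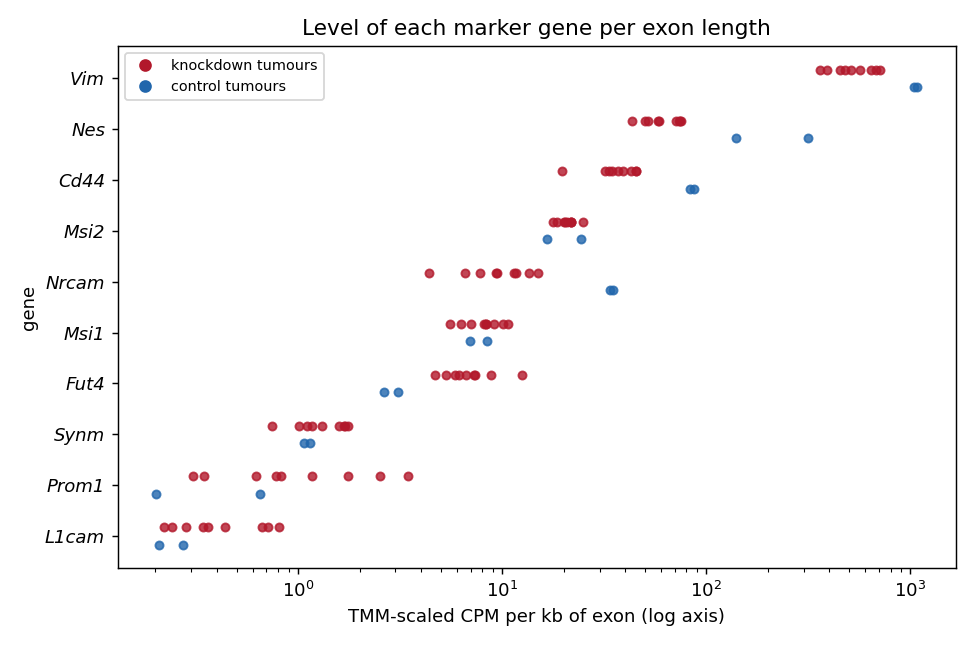
Level of each marker gene in every tumour as TMM-scaled CPM per kb of exon on a log axis, genes ordered by their mean in the knockdown tumours, with knockdown tumours (red) above controls (blue). Levels span from 533 CPM per kb for Vim to 0.45 CPM per kb for L1cam in the knockdown tumours.

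Among the 9 knockdown tumours the remaining Ezh2 differed, and each gene was set against it. None of the 10 relations passed after adjustment (exact permutation over all pairings, two-sided, Benjamini-Hochberg; smallest adjusted p = 0.142), while 2 had an unadjusted p under 0.05. Before adjustment Msi1 was higher where more Ezh2 remained (Pearson r = 0.757, exact permutation p = 0.0187, adjusted p = 0.142; Spearman rho = 0.783, exact permutation p = 0.0172, adjusted p = 0.172). Vim was lower there (r = -0.728, exact permutation p = 0.0284, adjusted p = 0.142; rho = -0.700, exact permutation p = 0.0433, adjusted p = 0.216). Without the 2 tumours farthest from the median Ezh2 level r was 0.740 for Msi1 and -0.757 for Vim. Nes had r = 0.326 and rho = 0.517 (exact permutation p = 0.384 and 0.162, adjusted p = 0.768 and 0.324), rising to r = 0.522 without those tumours.

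Of the 45 pairs among the 10 genes none passed after adjustment either, and 5 had an unadjusted p under 0.05. The strongest was Vim with Msi1 (r = -0.886, exact permutation p = 0.00191, adjusted p = 0.0861; rho = -0.867, exact permutation p = 0.00451, adjusted p = 0.186; r = -0.805 without the 2 tumours farthest from the median of Vim). Vim and Nrcam, which were both lower in the knockdown group, also varied together within it before adjustment (r = 0.755, exact permutation p = 0.0170, adjusted p = 0.341; rho = 0.833, exact permutation p = 0.00827, adjusted p = 0.186; r = 0.679 without 2 tumours). Knockdown tumours with at least 10 CPM of Xist and those below it are 5 and 4 in number, too few to repeat these relations within each.

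**Figure D4:**
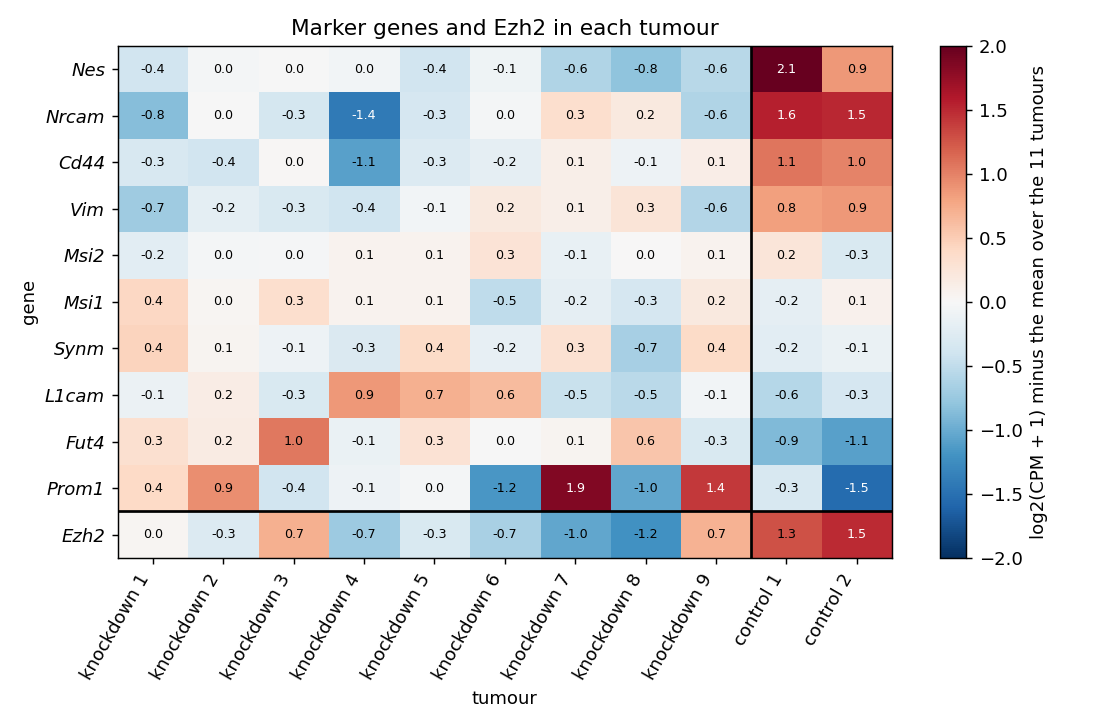
Heat map of log2(CPM + 1) minus the mean over the 11 tumours, with the marker genes ordered by log2 fold change and Ezh2 below the line, knockdown tumours 1 to 9 left of the vertical line and controls 1 and 2 right of it. Nes, Nrcam, Cd44 and Vim are high in both controls, Fut4 is low in both, and Prom1 is highest in knockdown tumours 7 and 9.

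Genes whose profile over the 11 tumours was closest to that of Nes were sought by the root mean square difference of mean-centred log2(CPM + 1). The candidates were 11327 tested genes with a mean log2 CPM of at least 2, predicted, Rik and pseudogene names left out. Among the nearest were Mbtps2, a membrane protease (difference 0.27), Mtap1b, a microtubule-associated protein of neurites (0.30), Rrm2b, a ribonucleotide reductase subunit (0.31), and Cnnm4, a metal transporter (0.31). The spread of the Nes profile itself was 0.78 on this scale, and its nearest relative within the group, Cd44, differed by 0.58. Mtap1b averaged 96.5 CPM in the knockdown tumours and 286 CPM in the controls, and Mbtps2 17.9 CPM in the knockdown tumours and 61.9 CPM in the controls. Cd44 and Vim were each other's nearest in the group (0.39). Outside the group Fmnl2, a formin, was nearest to Cd44 (0.13), the kinase gene Stk17b to Vim (0.15), and Tnfrsf12a, the receptor for TWEAK, to Nrcam (0.26). Dusp7, a MAP kinase phosphatase, was nearest to Fut4 (0.23) and Col23a1, a membrane collagen, to Prom1 (0.33). For the genes that did not pass, the nearest were Il17ra for Synm, Apbb3 for Msi1, Patl1 for Msi2 and Plekhg2 for L1cam, with differences between 0.07 and 0.25.

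Of 16 other intermediate filament genes 12 were tested, with a median log2 fold change of 0.81. By edgeR, where 10.3% of all tested genes rose and 13.0% fell, 1 of these 12 rose and none fell. DESeq2 called 4 of them higher, and of all 16241 tested genes it called 2274 higher and 2590 lower. In the 8 libraries with at least 1 CPM of Xist 11 of these genes were tested, 4 being called higher and 1 lower. The shares of all tested genes in that smaller fit are not given here. Lmna, a lamin of the nuclear envelope, was below both controls in all 9 knockdown tumours without passing (log2 fold change -0.64, edgeR adjusted p = 0.0941). Ina, the neuronal filament protein internexin, rose by 2.37 on the log2 scale (edgeR, adjusted p = 0.0175), at 6.65 ± 2.41 CPM in the knockdown tumours (SD, n = 9) and 1.26 ± 1.23 CPM in the controls (SD, n = 2). It lost the call without control 1 (1.63, adjusted p = 0.148). Without control 2 its value was 4.08 (adjusted p = 0.0102), control 1 standing at 0.38 CPM. Gfap, the astrocyte filament gene, had 250 ± 129 CPM in the knockdown tumours and 61.3 ± 65.5 CPM in the controls and did not pass (log2 fold change 2.03, edgeR adjusted p = 0.0899), though it did by DESeq2 (adjusted p = 0.014), by limma-voom (adjusted p = 0.04) and against control 2 alone (4.06, edgeR adjusted p = 0.0472). Among 6 tested linker genes, whose proteins tie filaments to other structures, only Evpl, the gene of envoplakin, passed, at 27.8 ± 15.4 CPM in the knockdown tumours and 4.63 ± 2.38 CPM in the controls (log2 fold change 2.59, edgeR adjusted p = 0.0207). Evpl did not pass with either control alone (adjusted p = 0.0831 and 0.167), and Eppk1 was not matched.

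Of 14 tested genes for hyaluronan metabolism and CD44 binding 2 rose and 3 fell, where 10.3% and 13.0% of all tested genes did, with a median log2 fold change of 0.05. Has2, a synthase of hyaluronan, rose by 1.95 on the log2 scale (edgeR, adjusted p = 0.00968), with between 43.4 and 166 CPM in the knockdown tumours against 24.4 and 27.3 CPM in the controls. Hmmr, another hyaluronan-binding protein with a role in mitosis, rose by 1.01 (adjusted p = 0.0406), with groups that overlapped and a call lost in 8 of 21 alternatives. Msn, the gene of moesin, which couples CD44 to actin, fell by 1.35 (adjusted p = 0.000673), at 702 ± 127 CPM in the knockdown tumours and 1796 ± 336 CPM in the controls. Hyal1, a hyaluronidase, fell by 1.80 (adjusted p = 0.000983). With a single control neither Has2 nor Hmmr passed, and Msn and Hyal1 both did.

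Neither of the other L1 family genes, Chl1 and Nfasc, passed. Chl1 had 40.0 ± 50.4 CPM in the knockdown tumours and 46.3 ± 39.6 CPM in the controls (log2 fold change -0.21 ± 0.91 SE, edgeR adjusted p = 0.887), a sign that turned to 1.12 without control 2. Nfasc had 29.3 ± 23.9 CPM in the knockdown tumours and 27.5 ± 18.4 CPM in the controls (log2 fold change 0.09 ± 0.86 SE, edgeR adjusted p = 0.949), a sign that turned to -0.47 without control 1. Both were highest in knockdown tumour 9, at 172 and 82.4 CPM, and their changes were not tested against that of Nrcam. Of the 15 genes of this family and its partners 5 rose and 3 fell, where 10.3% and 13.0% of all tested genes did. Their median log2 fold change was 0.09, and it was -0.07 without control 1 and 1.01 without control 2. The counts also changed with either control left out. The semaphorin co-receptors parted: Nrp1, which binds L1CAM, rose by 1.53 on the log2 scale (edgeR, adjusted p = 0.00144), and Nrp2, which binds NrCAM, fell by 2.53 (adjusted p = 0.00109). Nrp1 had between 319 and 529 CPM in the knockdown tumours against 118 and 173 CPM in the controls, and Nrp2 had between 41.7 and 128 CPM in the knockdown tumours against 741 and 236 CPM in the controls. Without control 1 Nrp2 did not pass (-1.48, adjusted p = 0.0711). Ank1, a cytoskeletal adaptor of the ankyrin family, rose by 1.90 (adjusted p = 0.00916) and was not called with a single control, whereas Adam10, a protease that sheds L1CAM and CD44, fell by 0.94 (adjusted p = 0.00101).

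For the fucose pathway 13 of 15 genes were tested, with a median log2 fold change of -0.03. Of these 1 rose and 1 fell, where 10.3% and 13.0% of all tested genes did. Fut9, the other enzyme able to make Lewis X in brain, had 7.67 ± 3.96 CPM in the knockdown tumours and 15.3 ± 2.53 CPM in the controls. Its log2 fold change, -0.99 ± 0.49 (SE; edgeR, adjusted p = 0.169), did not pass. Fut8, which adds the core fucose of N-glycans, fell by 1.05 (adjusted p = 0.021), and Fut11 rose by 0.56 (adjusted p = 0.0399). Neither passed with a single control, and Fut11 lost its call in 13 of 21 alternatives.

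Of 8 tested mRNAs reported as targets of Musashi proteins none rose and 1 fell, where 10.3% and 13.0% of all tested genes did. The 1 that fell was Jag1, a Notch ligand, at 126 ± 23.4 CPM in the knockdown tumours and 218 ± 18.9 CPM in the controls. Its log2 fold change was -0.79 (edgeR, adjusted p = 0.0123), a call lost with a single control. Among 4 tested partners and relatives of prominin-1 Arl13b, a small GTPase of cilia, rose by 0.62 (adjusted p = 0.00451) and Ttyh3, a tweety membrane protein, fell by 0.85 (adjusted p = 0.0143), and both calls were lost without control 2.

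Of 24 tested stem cell markers outside the group 2 rose and 4 fell (median log2 fold change -0.33), against 10.3% and 13.0% of all tested genes. Fewer were called with either control left out, and the median was -0.48 without control 1 and -0.07 without control 2. The number lower was 6 without knockdown 3, 7 without knockdown 9 and 9 without both. It was 8 in the libraries with at least 1 CPM of Xist. The shares of all tested genes in those fits are not given here, so these counts show nothing particular to the markers. Egfr and Pdgfra, growth factor receptors of progenitors, rose by 0.96 (edgeR, adjusted p = 0.0149) and 1.21 (adjusted p = 0.0242), both only with the 2 controls together. Olig2, a transcription factor of progenitors, fell by 2.71 (adjusted p = 0.00855), at 4.76 ± 2.99 CPM in the knockdown tumours and 31.2 ± 19.7 CPM in the controls, and did not pass without control 2 (-1.86, adjusted p = 0.164). Cxcr4, a chemokine receptor, fell by 1.79 (adjusted p = 0.00268) and did not pass without control 1 (-0.89, adjusted p = 0.164).

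Several of these genes are also expressed by cells of the host that a tumour sample holds, and in bulk RNA fewer cells of a type and less RNA per cell cannot be told apart. Beside the fall of Nes, Vim, Cd44 and Nrcam, the summed levels of the markers of 3 cell types did not overlap between groups. Of the single markers, 4 of 10 for macrophages and microglia and 3 of 6 for oligodendrocytes did not overlap between groups. The same held for all 5 neutrophil markers, and for 27.2% of all tested genes. Of all tested genes 10.3% rose and 13.0% fell. Of 10 macrophage and microglia markers 7 fell, and their summed level was 202 to 380 CPM in the knockdown tumours against 436 and 891 CPM in the controls. Without control 2 fewer of them were called, and their median log2 fold change was -0.31, against -1.10 with both controls. All 5 neutrophil markers fell, with sums of 1.37 to 6.84 CPM in the knockdown tumours against 184 and 55.6 CPM in the controls. Of 6 oligodendrocyte markers 3 rose, with sums of 261 to 434 CPM in the knockdown tumours against 130 and 103 CPM in the controls. The sums of the markers of endothelium (1 of 7 rose, 1 fell), pericytes and fibroblasts (1 of 7 rose), neurons (2 of 7 rose), astrocytes (none of 6 passed) and ependyma (none of 3 tested passed) overlapped between the groups. Without knockdown 3, 5 of 7 endothelial markers rose, whereas without knockdown 9 only 2 did. The calls of the neuronal and of the pericyte and fibroblast markers were lost with either control left out. The shares of all tested genes called in these smaller fits are not given here, and 10.3% and 13.0% do not apply to them. The sum in control 2 exceeded that in control 1 for macrophages, while Nes and the neutrophil sum were higher in control 1. The part of these cells in the levels of the 10 genes was not tested.

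**Figure D5:**
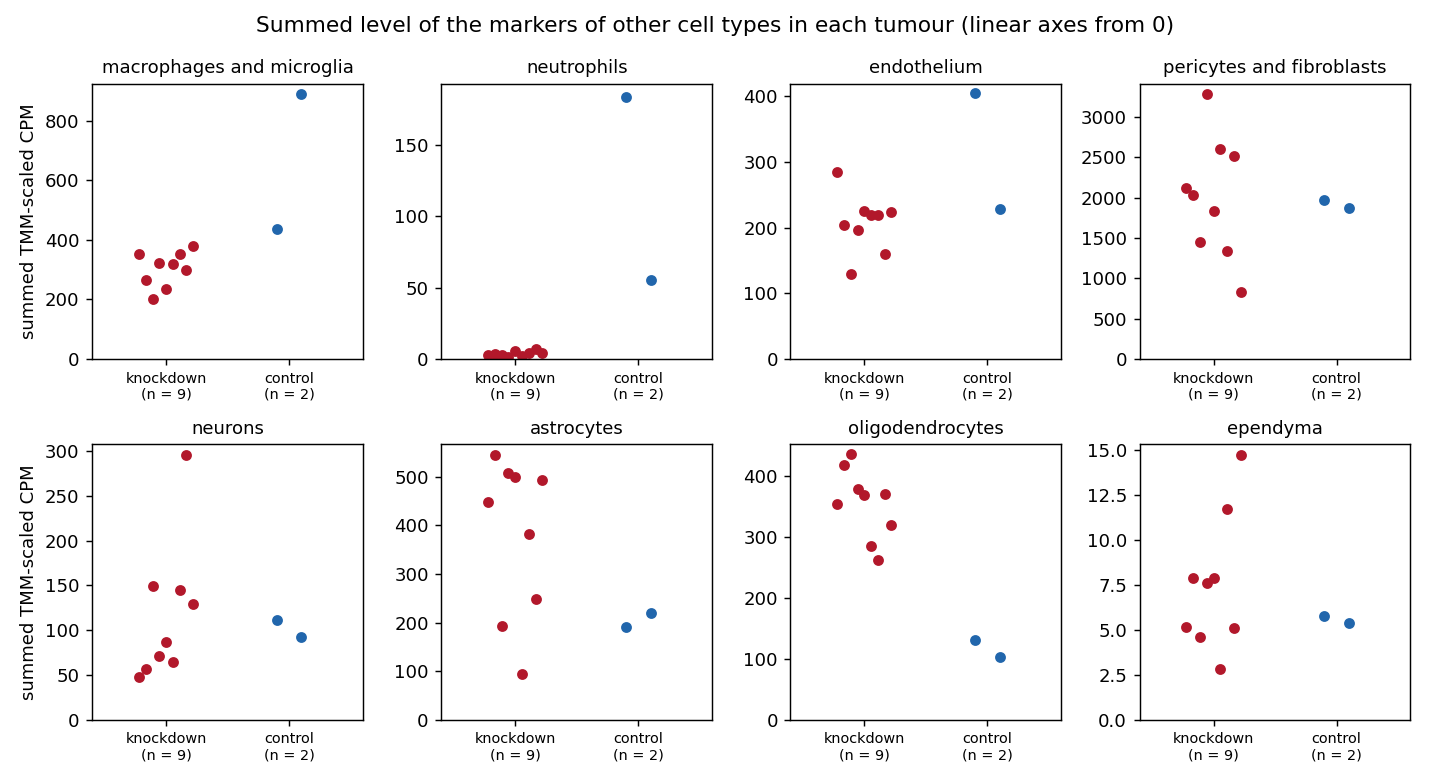
Summed TMM-scaled CPM of marker genes of 8 other cell types, with the 9 knockdown tumours at left (red) and the 2 controls at right (blue) in each panel. In all 9 knockdown tumours the macrophage and neutrophil sums lie below both controls and the oligodendrocyte sums above them, and the groups overlap in the other panels.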

How the data were processed

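RNA from 11 tumours was sequenced on an Illumina HiSeq2000 after TRIzol extraction and TruSeq RNA library preparation, per the labels' protocols. The deposited table holds whole-number read counts per Ensembl gene and tumour, and the submitters' processing notes name TopHat 1.4.0, HTSeq and build mm9. Neither the settings and filters nor the use of strand in counting is given in the sources used here. Groups and replicate numbers came from the sample titles, and coordinates of genes from the table.

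The test was that of edgeR 4.0.16 (R 4.3.3): filterByExpr kept 16241 of 27687 genes (99.9% of counts), TMM scaled the libraries (factors 0.919 to 1.077), and the quasi-likelihood F-test compared 9 knockdown with 2 control libraries without covariates. The p-values were adjusted by Benjamini-Hochberg over all tested genes, with a threshold of 0.05. The SE is the log2 fold change divided by the square root of F. The common biological coefficient of variation was 33.9%. Alternatives used DESeq2 1.42.0, limma 3.58.1, other scalings and filters, the replicate block and libraries left out. The script was tested on simulated data. Whether the tumours trace back to separate animals or cultures of stem cells is not stated, so the p-values speak only of the spread among these 11 libraries, part of which may be technical. No library was a copy of another (smallest chi-square per degree of freedom within groups 11.2).

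The 10 genes and all lists were chosen with earlier results of these data known. Named were all 10 genes, from each list up to 2 called genes in each direction by smallest p (none called, the 2 of smallest p), Chl1, Nfasc, Fut9 and Gfap, and the nearest genes by profile (5 for Nes, of which 1 is not reported here, and 1 for each other gene). Arhgap4 and Lmna were added after their values were seen. Relations used log2(CPM + 1), in Python 3.11.15. Promoter windows are those of RefSeq on GRCm38.p6 and exon lengths those of GENCODE M21, so that no coordinate of either was joined to mm9.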

Additional observations from a re-analysis of the deposited data

How the results depend on the processing

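Over 21 alternatives to the fit, the direction and side of the threshold of the 10 genes were kept in 195 of 210 values. With 1 library left out, the genes called numbered 1290 to 4269 against 3790, those higher 387 to 1957 against 1674 and those lower 903 to 2418 against 2116, each lowest without control 1. Of the 10 genes, between 0 and 1 were then called higher and between 3 and 4 lower; the counts were 0 and 3 without control 1, and again 0 and 3 without control 2. With the replicate block 686 genes were called, 362 higher and 324 lower, and of the 10 genes 0 higher and 2 lower (Cd44 and Nrcam). There Nes (-1.67, adjusted p = 0.10), Vim (-1.30, adjusted p = 0.0668), Fut4 (1.3, adjusted p = 0.053) and Ezh2 (-1.55, adjusted p = 0.0573) lost the call, as Ezh2 did without control 1 (-1.70) or control 2 (-1.48). The numbers share nothing stated in the labels, and deviations of same-numbered tumours correlated at -0.155 and 0.012.

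Signs of the log2 fold change turned only for genes that did not pass. For Msi2 the log2 fold change was -0.016 under RLE scaling and under DESeq2, -0.10 with the replicate block and -0.0096 without knockdown 3 and 9, and with 1 library left out it ran from -0.23 (without control 2) to 0.32 (without control 1), with -0.014 without knockdown 6. With 1 library left out it ran from -0.043 (without control 1) to 0.22 (without control 2) for Msi1, which was -0.014 without knockdown 3 and 9, and for Chl1 from -0.98 (without knockdown 9) to 1.12 (without control 2). For Nfasc it ran from -0.47 (without control 1) to 1.01 (without control 2) with 1 library left out, and was -0.053 and -0.28 without knockdown 7 or 9, -0.22 by limma-voom, -0.17 without knockdown 3 and 9, and -0.55 and -0.61 in the 8 and 7 libraries with Xist of at least 1 and 10 CPM. In relation to Ezh2, without the 2 tumours farthest from its median, r turned to -0.245 for Cd44, -0.0196 for Fut4 and 0.374 for L1cam, for which rho was 0.100. The cause was not tested. The setting of 10 CPM and that without knockdown 3 and 9, the tumours with the most Ezh2, were chosen after seeing the data. L1cam and Prom1 had as few as 20 and 23 reads in a library, the lowest among the 10 genes.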
